A study of Mus musculus with 11 samples.

Results

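The Sprouty genes Spry1, Spry2 and Spry4, the Spred genes Spred1 and Spred2 and the ETV genes Etv1, Etv4 and Etv5 were followed in B16-OVA cells, a mouse melanoma line from C57BL/6J mice that carries ovalbumin. They are 8 of the 54686 entries of a deposited gene table. They were chosen by name as feedback and output genes of the ERK pathway, with earlier results of these data known. The study compared YAP/TAZ knockdown with and without heat shock. In heated YAP/TAZ siRNA cells (3 libraries), a mixed siRNA pool targeting both YAP and TAZ was given 48 h before 1 h at 45 °C, and the cells then had 6 h at 37 °C to recover. Unheated YAP/TAZ siRNA cells (3 libraries) received the same pool and no heat. Heated control siRNA cells (2 libraries, replicates 1 and 3) received a control siRNA and the same heating, and unheated control siRNA cells (3 libraries) received the control siRNA alone. All cells were thus transfected, all came from 1 line, and a pool of siRNAs does not separate YAP from TAZ. Whether the replicates came from separate cultures is not stated, and p-values cover the spread between libraries only, which may be technical.

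ERK is the last kinase of the RAS-RAF-MEK-ERK cascade, which carries signals from growth factor receptors to the nucleus and is often overactive in melanoma. Sprouty and Spred proteins are made when the cascade is active and damp it again, Sproutys near the receptor and RAS, and Spreds by bringing the RAS inactivator neurofibromin to the membrane. Etv1, Etv4 and Etv5 encode the PEA3 group of ETS transcription factors, whose mRNAs are widely read as output of the cascade, and ETV1 has been linked to the melanocyte regulator MITF in human melanoma. The transcripts of these genes are used together as a readout of ERK output, and none of the values below measures ERK itself.

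Levels are FPKM, mapped fragments adjusted for gene length and library size, which can be compared between genes. Changes are on the log2(FPKM + 1) scale ± standard error, from 1 limma fit of all 11 libraries, and understate the change of genes near 1 FPKM. A gene was called where its Benjamini-Hochberg adjusted p over 12626 tested genes was under 0.05. Both targeted genes were lower under the pool: Yap1 was at 2.26 to 3.02 FPKM in the 6 YAP/TAZ siRNA libraries, against 5.79 to 15.6 FPKM in the 5 control siRNA libraries, and Wwtr1, which encodes TAZ, at 1.40 to 1.83 FPKM against 5.37 to 8.47 FPKM. The heat marker Hspb1 was at 112 to 232 FPKM in heated and 10.0 to 13.6 FPKM in unheated YAP/TAZ siRNA libraries, and at 3296 and 3321 FPKM in heated and 11.9 to 16.1 FPKM in unheated control siRNA libraries. All 10 melanocyte markers were tested, with a summed level of 6510 to 8537 FPKM per library. Macrophage markers summed to 2.71 to 3.24 FPKM in heated YAP/TAZ siRNA libraries, 1.47 to 1.90 FPKM in unheated YAP/TAZ siRNA libraries, 6.18 to 6.70 FPKM in heated control siRNA libraries and 2.28 to 2.60 FPKM in unheated control siRNA libraries, and 2 of the 5 passed the filter. Of the 5 lymphocyte markers 1 passed, Cd79a, at 1.87 and 1.82 FPKM in heated control siRNA libraries and at 0 to 0.314 FPKM in all others, while Ptprc was at 0 in every library. Fibroblast markers (2 of 6 passed, Dcn at 0 in every library) summed to 0.870 to 0.968 FPKM in heated and 1.18 to 1.40 FPKM in unheated YAP/TAZ siRNA libraries, to 1.43 FPKM in both heated control siRNA libraries and to 2.74 to 2.95 FPKM in unheated ones. None of the 4 endothelial markers passed and Cdh5 was at 0, but Pecam1 was at 1.08 and 0.918 FPKM in heated control siRNA libraries and at most at 0.116 FPKM in all others. None of the 4 keratinocyte markers passed, with sums of 0 to 0.0807 FPKM and Krt10 at 0. Macrophage, lymphocyte and endothelial sums were thus highest in heated control siRNA libraries. Their part in the results below was not tested. In bulk RNA, fewer cells of a type and less RNA per cell cannot be told apart. Between 20000 and 21662 genes were above 0 in the other groups, and 23173 and 23242 in heated control siRNA cells.

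Spred1 and Spry2 were the most abundant of the 8 genes in all 4 groups, and Etv1 was the least abundant. In unheated control siRNA cells the mean levels ran from Spred1 (17.7 FPKM) through Spry2 (12.5 FPKM), Spred2 (9.65 FPKM), Etv5 (8.20 FPKM), Spry4 (5.85 FPKM), Etv4 (5.36 FPKM) and Spry1 (1.69 FPKM) to Etv1 (0.882 FPKM). Of the neighbours in that order, the libraries of Spry4 and Etv4 overlapped and the others did not. In heated control siRNA cells Spry2 stood first at 17.5 FPKM, but its libraries overlapped those of Spred1 at 17.1 FPKM. Spry1 was second lowest in both control siRNA groups and in unheated YAP/TAZ siRNA cells, where its libraries overlapped those of Etv1. In heated YAP/TAZ siRNA cells its 1.30 FPKM lay beside the 1.28 FPKM of Etv4, with overlapping libraries. Of the 8 genes, 7 passed the filter of at least 1 FPKM in at least 2 libraries, and Etv1 did not. Spry1 passed through the groups in which it was high, since no library of unheated YAP/TAZ siRNA or heated control siRNA cells reached 1 FPKM.

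**Figure D1:**
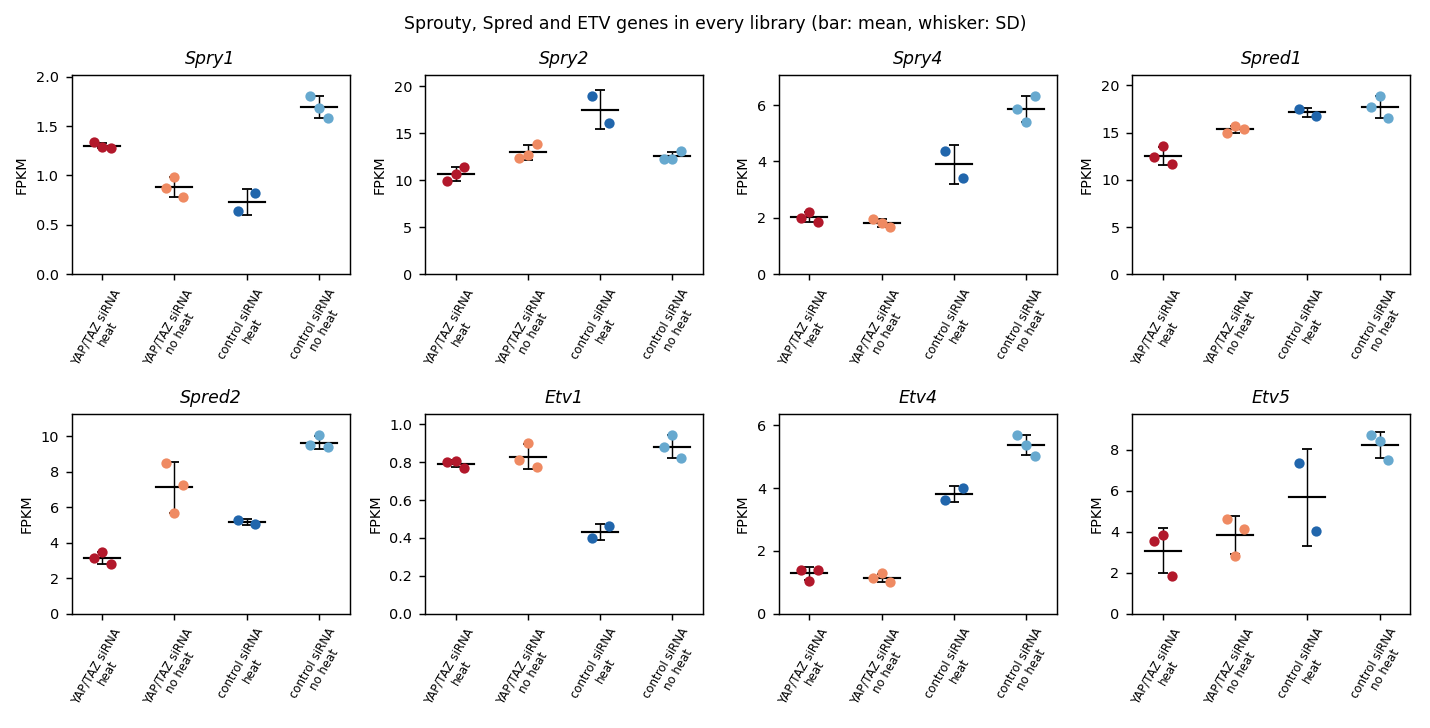
FPKM of the 8 genes (1 panel each, y axes from 0), with the groups from left to right YAP/TAZ siRNA with and without heat, then control siRNA with and without heat; points are libraries, bars are means and whiskers are SD. Spry4 and Etv4 are low in all 6 YAP/TAZ siRNA libraries, while the mean of heated control siRNA cells is the lowest of the 4 for Spry1 and the highest for Spry2.

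YAP/TAZ siRNA without heat lowered 6 of the 7 tested genes and raised none, against 21.9% of all tested genes called lower and 27.1% called higher (49.0% in all). Etv4, Spry4 and Etv5 had the largest changes, Spry1, Spred2 and Spred1 had smaller ones, and Spry2 was not called. After heat, YAP/TAZ siRNA cells had 5 genes lower and 1 higher than control siRNA cells, against 17.9% of all tested genes called lower and 36.3% called higher (54.3% in all); Spry1 was the higher one. Heat under YAP/TAZ siRNA lowered Spred2, Spred1 and Spry2 and raised Spry1 (4 of 7 called, against 31.7% of all tested genes lower and 18.6% higher). Heat under control siRNA lowered Spry1, Spry4, Spred2 and Etv4 and raised Spry2 (5 of 7 called, against 36.9% lower and 12.4% higher). In either direction, heat called 50.3% of all tested genes under YAP/TAZ siRNA and 49.2% under control siRNA. The difference between the 2 heat responses, written as the response under YAP/TAZ siRNA minus that under control siRNA, was called positive for Spry1, Spry4 and Etv4 and negative for Spry2, against 24.6% of all tested genes called positive and 13.4% negative (37.9% in all). The comparisons share libraries, so they are not independent of each other.

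**Figure D2:**
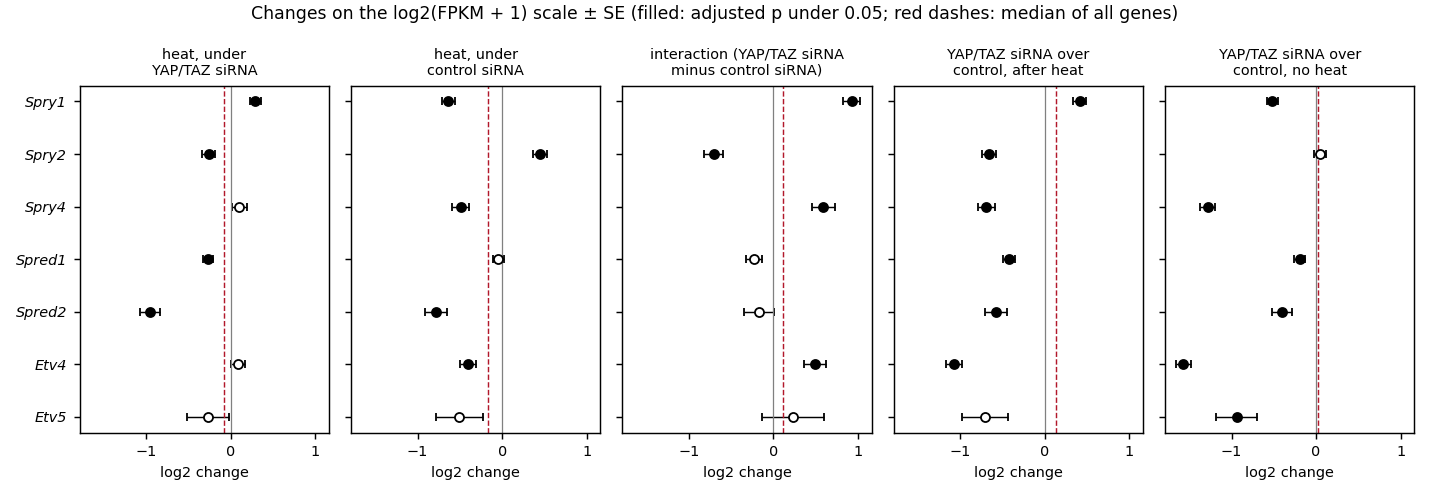
Log2 changes on the log2(FPKM + 1) scale (x axis) with standard errors for the 7 tested genes (y axis) in 5 comparisons; filled points have an adjusted p under 0.05 and red dashes mark the median of all tested genes. Etv4 and Spry4 lie farthest left under YAP/TAZ siRNA without heat, and Spry1 and Spry2 lie on opposite sides of 0 in both heat comparisons and in the interaction.

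The Sprouty genes encode cysteine-rich inhibitors that are phosphorylated and bind adaptors such as GRB2 and the ubiquitin ligase CBL. Spry1 (ENSMUSG00000037211; chromosome 3, 37639947 to 37644598, plus strand, GRCm38) was at 1.33, 1.29 and 1.28 FPKM in heated YAP/TAZ siRNA libraries and at 0.877, 0.982 and 0.786 FPKM in unheated ones. It was at 0.640 and 0.826 FPKM in heated control siRNA libraries and at 1.80, 1.69 and 1.58 FPKM in unheated ones. Unheated control siRNA cells were thus the highest group, and heat moved Spry1 in opposite directions under the 2 siRNAs, with no overlap of libraries in either case. It rose with heat under YAP/TAZ siRNA (0.29 ± 0.07, limma adjusted p = 0.0064) and fell with heat under control siRNA (-0.64 ± 0.08, limma adjusted p = 1.2e-04). Between the responses the difference was 0.93 ± 0.10 (limma adjusted p = 1.8e-04), the largest of the 7. The knockdown therefore had opposite signs by condition, 0.41 ± 0.08 after heat and -0.52 ± 0.07 without heat (limma adjusted p = 0.0015 and 2.0e-04). Spry1 overlaps the locus Gm42922 on the opposite strand over 710 bases, and the strandedness of the authors' counting is not known here; that locus was at 0.0123 to 0.371 FPKM.

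Spry2 (ENSMUSG00000022114; chromosome 14, 105891947 to 105896819, minus strand), the main Sprouty of these cells, was at 9.91, 10.7 and 11.5 FPKM in heated YAP/TAZ siRNA libraries and at 12.4, 12.7 and 13.9 FPKM in unheated ones. It was at 19.0 and 16.1 FPKM in heated control siRNA libraries and at 12.3, 12.3 and 13.1 FPKM in unheated ones. The 2 heated control siRNA libraries were higher than all others, and the unheated groups overlapped. Spry2 rose with heat under control siRNA by 0.45 ± 0.08 (limma adjusted p = 0.0019), 1.40-fold in mean FPKM. Under YAP/TAZ siRNA it fell with heat by 0.26 on the log2 scale (limma adjusted p = 0.017), a call that ended with median-of-ratios scaling (-0.17, adjusted p = 0.119), with quantile normalization (-0.19, adjusted p = 0.0688) and without heated replicate 1 (-0.21) or unheated replicate 3 (-0.21). The heat responses differed by -0.71 ± 0.11 (limma adjusted p = 0.0014), of the opposite sign to that of Spry1. Knockdown cells were lower after heat (-0.66 ± 0.08, limma adjusted p = 1.6e-04), while without heat the change was 0.05 ± 0.08 (limma adjusted p = 0.651), a value that turned to -0.023 with median-of-ratios scaling.

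Promoter windows of 250 bases before to 50 bases after the start were taken from RefSeq on GRCm38.p6 and held 8 windows for 6 of the 8 genes. Spry4 and Etv4 had no window, so the motif search did not cover them. Etv1 and Etv5 had a second window each, and that of Etv1 held no match. The 250 bases before the start are shown for Spry1 and Spry2, which moved in opposite directions with heat, and for Etv1, which with Spry1 held the TEAD letters; capitals mark GGAATG, the letters searched for TEAD factors, the DNA-binding partners of YAP and TAZ. The stretches are chr3:37639697-37639946 (plus strand) for Spry1, chr12:38779832-38780081 (plus strand) for Etv1 and chr14:105896820-105897069 (minus strand) for Spry2, each written 5′ to 3′.
Spry1: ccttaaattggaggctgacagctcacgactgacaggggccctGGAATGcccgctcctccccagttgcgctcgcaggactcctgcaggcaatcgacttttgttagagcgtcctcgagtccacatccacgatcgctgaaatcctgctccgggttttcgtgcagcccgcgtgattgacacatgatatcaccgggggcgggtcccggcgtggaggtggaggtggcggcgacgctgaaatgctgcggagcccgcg
Etv1: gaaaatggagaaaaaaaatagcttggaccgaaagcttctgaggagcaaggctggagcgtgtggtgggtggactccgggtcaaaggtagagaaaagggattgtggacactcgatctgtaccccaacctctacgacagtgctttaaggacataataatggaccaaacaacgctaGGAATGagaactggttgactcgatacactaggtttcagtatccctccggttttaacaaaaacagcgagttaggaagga
Spry2: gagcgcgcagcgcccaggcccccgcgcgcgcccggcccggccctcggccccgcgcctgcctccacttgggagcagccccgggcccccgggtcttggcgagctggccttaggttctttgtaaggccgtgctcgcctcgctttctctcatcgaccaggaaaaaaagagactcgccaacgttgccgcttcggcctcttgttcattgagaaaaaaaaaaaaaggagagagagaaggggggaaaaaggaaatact
The match lies at positions -208 to -203 from the start in Spry1 and -78 to -73 in Etv1. The RefSeq start used for Etv1 lies inside the gene span given below (38779380 to 38870484), and so does the whole stretch shown. On both strands, GGAATG was in 2 of the 8 windows and in 14.7% of all 32851 windows. The ETS letters CCGGAA were in 1 of the 8, that of Spry2 at 33 to 38 bases after the start, and in 14.9% of all windows. None of the 8 windows held TGAATGAA or TGAATGGA, which were searched for the ETV repressor Capicua and were in 2.47% of all windows. Neither TGANTCA (AP-1, 7.81%) nor GAANNTTC (heat shock element, 7.86%) was in any of the 8. These motifs do not share letters in the places found, and a match is only a description of the window.

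Spry4 (ENSMUSG00000024427; chromosome 18, 38586247 to 38601415, minus strand), a Sprouty that acts on RAS activation, was at 2.00, 2.21 and 1.86 FPKM in heated YAP/TAZ siRNA libraries and at 1.95, 1.82 and 1.67 FPKM in unheated ones. It was at 4.37 and 3.42 FPKM in heated control siRNA libraries and at 5.85, 5.38 and 6.32 FPKM in unheated ones. Every YAP/TAZ siRNA library lay below every control siRNA library, and the YAP/TAZ siRNA groups overlapped each other. Without heat the change with knockdown was -1.28 ± 0.09 (limma adjusted p = 4.3e-06), a mean 3.23-fold higher in control siRNA cells, and after heat it was -0.69 ± 0.10 (limma adjusted p = 3.6e-04). Heat lowered Spry4 under control siRNA (-0.49 ± 0.10, limma adjusted p = 0.0029). Under YAP/TAZ siRNA its change was 0.10 ± 0.09 (limma adjusted p = 0.366) and among the alternatives was called with quantile normalization (0.25, adjusted p = 0.0368) only. Spry4 overlaps the small RNA genes Gm27369 (71 bases) and Gm27804 (119 bases) on the opposite strand. The heat responses differed by 0.59 ± 0.13 (limma adjusted p = 0.0078).

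The Spred genes encode membrane proteins with an EVH1 domain at one end and a Sprouty-related domain at the other, which link RAS to neurofibromin. Spred1 (ENSMUSG00000027351; chromosome 2, 117121374 to 117182279, plus strand) was at 12.4, 13.6 and 11.7 FPKM in heated YAP/TAZ siRNA libraries and at 15.0, 15.7 and 15.4 FPKM in unheated ones. It was at 17.5 and 16.8 FPKM in heated control siRNA libraries and at 17.7, 18.9 and 16.6 FPKM in unheated ones. The control siRNA groups overlapped, and both YAP/TAZ siRNA groups lay below them, the heated one lowest. Spred1 fell with heat under YAP/TAZ siRNA (-0.27 ± 0.06, limma adjusted p = 0.0062), and its change under control siRNA was -0.04 ± 0.07 (limma adjusted p = 0.633), which turned to 0.12 and 0.10 with median-of-ratios scaling and quantile normalization. The difference between the responses was -0.23 ± 0.09 (limma adjusted p = 0.0868) and was called in 4 of the alternatives, given in the closing section. Knockdown lowered it after heat (-0.42 ± 0.07, limma adjusted p = 8.3e-04) and, by the smallest called change, without heat (-0.19 ± 0.06, limma adjusted p = 0.0281). That last call ended without any 1 of unheated YAP/TAZ siRNA replicates 1 and 3 and unheated control siRNA replicates 1 and 2 (-0.20 to -0.15, adjusted p = 0.0583 to 0.102).

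Spred2 (ENSMUSG00000045671; chromosome 11, 19924375 to 20024026, plus strand) was at 3.16, 3.50 and 2.81 FPKM in heated YAP/TAZ siRNA libraries and at 8.52, 5.66 and 7.23 FPKM in unheated ones. It was at 5.30 and 5.04 FPKM in heated control siRNA libraries and at 9.51, 10.1 and 9.37 FPKM in unheated ones. Heated libraries were lower than unheated ones under both siRNAs, with no overlap. Spred2 was the only one of the 7 called lower with heat under both siRNAs in every alternative run, with changes of -0.96 ± 0.12 under YAP/TAZ siRNA (limma adjusted p = 2.4e-04) and -0.79 ± 0.13 under control siRNA (limma adjusted p = 9.1e-04). For Spred2 the responses differed by -0.17 ± 0.18 (limma adjusted p = 0.482). With knockdown the change was -0.57 ± 0.13 after heat (limma adjusted p = 0.0049) and -0.40 ± 0.12 without heat (limma adjusted p = 0.0180). The call without heat ended without unheated control siRNA replicate 2 (-0.38, adjusted p = 0.0571), and its value was -0.27 without unheated YAP/TAZ siRNA replicate 2.

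The third Spred gene, Spred3, is not one of the 8 and had another pattern. Spred3 was at 0.917, 1.23 and 0.930 FPKM in heated and 1.81, 2.06 and 1.77 FPKM in unheated YAP/TAZ siRNA libraries. It was at 3.23 and 2.79 FPKM in heated and 1.06, 0.969 and 0.745 FPKM in unheated control siRNA libraries. As for Spry2, the 2 heated control siRNA libraries were the highest. The change with heat was -0.51 ± 0.09 under YAP/TAZ siRNA and 1.06 ± 0.10 under control siRNA (limma adjusted p = 0.0017 and 3.0e-05), and the difference between the responses was -1.57 ± 0.14 (limma adjusted p = 5.4e-05). Spry3, the fourth Sprouty gene, was also looked for, but no entry of the gene table carried that symbol.

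The PEA3 factors bind DNA through an ETS domain and act on genes of growth and invasion. Etv4 (ENSMUSG00000017724; chromosome 11, 101769742 to 101785371, minus strand) was at 1.41, 1.04 and 1.41 FPKM in heated YAP/TAZ siRNA libraries and at 1.13, 1.28 and 1.02 FPKM in unheated ones. It was at 3.63 and 3.99 FPKM in heated control siRNA libraries and at 5.68, 5.38 and 5.03 FPKM in unheated ones. All YAP/TAZ siRNA libraries were below all control siRNA libraries, and the YAP/TAZ siRNA groups overlapped each other. Etv4 had the largest change with knockdown of the 7 genes, -1.08 ± 0.09 after heat (limma adjusted p = 1.7e-05) and -1.57 ± 0.08 without heat (limma adjusted p = 1.1e-06). In mean FPKM it was 2.96-fold higher in heated and 4.68-fold higher in unheated control siRNA cells than in their knockdown counterparts. With heat it changed by 0.09 ± 0.08 under YAP/TAZ siRNA (limma adjusted p = 0.410) and fell under control siRNA (-0.40 ± 0.09, limma adjusted p = 0.0059). The fall under control siRNA was no longer called with quantile normalization (-0.20, adjusted p = 0.135) or without heated control siRNA replicate 1 (-0.35, adjusted p = 0.0565). For Etv4 the responses differed by 0.49 ± 0.13 (limma adjusted p = 0.0139), and without that replicate it was 0.44 (adjusted p = 0.0675).

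Etv5 (ENSMUSG00000013089; chromosome 16, 22381309 to 22439719, minus strand) varied widely within 3 of the 4 groups. It was at 3.54, 3.85 and 1.85 FPKM in heated YAP/TAZ siRNA libraries and at 4.62, 2.83 and 4.12 FPKM in unheated ones. It was at 7.35 and 4.01 FPKM in heated control siRNA libraries and at 8.70, 8.42 and 7.49 FPKM in unheated ones. Unheated control siRNA libraries were the highest, and the 2 YAP/TAZ siRNA groups overlapped. Knockdown lowered Etv5 without heat (-0.94 ± 0.24, limma adjusted p = 0.0105). After heat its change of -0.70 ± 0.27 missed the threshold (limma adjusted p = 0.0536), and this value depended on the heated control siRNA libraries: it was -1.07 (adjusted p = 0.0203) without replicate 3 and -0.34 (adjusted p = 0.411) without replicate 1. It was called with the replicate block (-0.70, adjusted p = 0.0375), with median-of-ratios scaling (-0.83), with quantile normalization (-0.82) and without heated (-0.85) or unheated (-0.70) YAP/TAZ siRNA replicate 2. Heat changed it by -0.27 ± 0.24 under YAP/TAZ siRNA and -0.51 ± 0.27 under control siRNA (limma adjusted p = 0.382 and 0.156), and the difference between the responses was 0.23 ± 0.37 (limma adjusted p = 0.651). Single libraries moved these values as well: under YAP/TAZ siRNA the heat change was -0.03 without heated replicate 3 and -0.43 without unheated replicate 2, and under control siRNA it was -0.87 without heated replicate 1 and -0.14 without heated replicate 3, none of them called.

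Etv1 (ENSMUSG00000004151; chromosome 12, 38779380 to 38870484, plus strand) stayed under 1 FPKM in every library and so was not among the tested genes. It was at 0.799, 0.806 and 0.771 FPKM in heated YAP/TAZ siRNA libraries and at 0.811, 0.903 and 0.776 FPKM in unheated ones. It was at 0.400 and 0.462 FPKM in heated control siRNA libraries and at 0.880, 0.942 and 0.825 FPKM in unheated ones. The heated control siRNA libraries were lower than all other libraries, and unheated YAP/TAZ siRNA libraries overlapped both other groups. In a fit with no filter on low values, in which 29695 genes were tested, Etv1 was lower with heat under control siRNA (-0.40 ± 0.06, limma adjusted p = 0.0017), and the difference between the heat responses was 0.37 ± 0.09 (limma adjusted p = 0.0177). Unlike Etv4 and Etv5 it was not called with knockdown in unheated cells (-0.04 ± 0.06, limma adjusted p = 0.808), and after heat it was higher in knockdown cells (0.32 ± 0.06, limma adjusted p = 0.0047); the difference between these genes was not tested.

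Summed by family, the 3 ETV genes together were at 5.15 ± 0.976 FPKM in heated YAP/TAZ siRNA cells (SD, n = 3), 5.83 ± 0.778 FPKM in unheated ones (SD, n = 3), 9.92 ± 2.06 FPKM in heated control siRNA cells (SD, n = 2) and 14.4 ± 0.994 FPKM in unheated ones (SD, n = 3). The ETV sum fell with knockdown after heat (-0.83 ± 0.16, limma adjusted p = 0.0020) and without heat (-1.18 ± 0.14, limma adjusted p = 1.2e-04). The Sprouty sum also fell with knockdown, by -0.62 ± 0.07 after heat and -0.34 ± 0.07 without heat (limma adjusted p = 1.2e-04 and 0.0025). The Spred sum changed by -0.48 ± 0.07 and -0.27 ± 0.07 in the same comparisons (limma adjusted p = 5.1e-04 and 0.0073). The makeup of the Sprouty sum shifted with it. Spry2 gave 76.2% of the summed Sprouty FPKM in heated YAP/TAZ siRNA cells, 82.8% in unheated ones, 79.1% in heated control siRNA cells and 62.5% in unheated ones, and Spry4 gave 14.5% in heated YAP/TAZ siRNA cells, 11.6% in unheated ones, 17.5% in heated control siRNA cells and 29.1% in unheated ones. The share of Etv4 in the ETV sum was 25.9% in heated and 20.0% in unheated YAP/TAZ siRNA cells, against 39.5% in heated and 37.1% in unheated control siRNA cells. By library the heated groups overlapped, at 18.3 to 34.9% under YAP/TAZ siRNA and 31.9 and 47.1% under control siRNA, whereas the unheated groups did not, at 17.3 to 25.6% under YAP/TAZ siRNA and 36.5 to 37.7% under control siRNA.

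**Figure D3:**
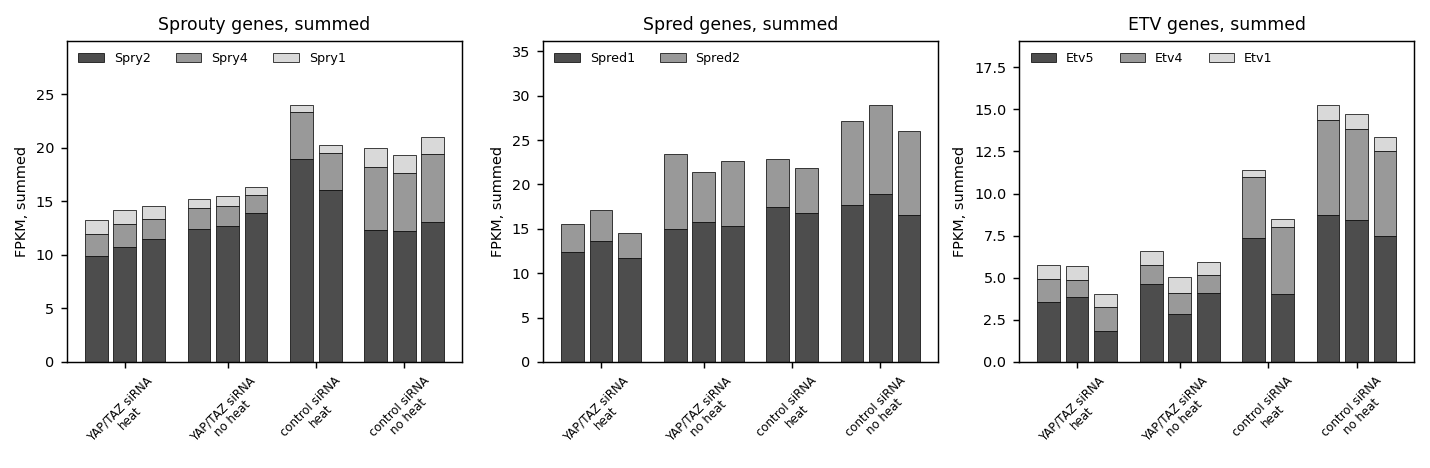
Summed FPKM (y axis, from 0) of the Sprouty, Spred and ETV genes in each of the 11 libraries (1 stacked bar each), grouped by siRNA and heat, with shades for the single genes. The ETV bars are lower in all YAP/TAZ siRNA libraries than in any control siRNA library, and unheated control siRNA libraries have the largest part of Spry4.

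Most of the other genes listed as following ERK output and tested were also lower with knockdown. The list was fixed with earlier results of these data known, so it carries no test. Of 18 listed, 12 were tested. Lif passed the filter only through the heated control siRNA libraries (2.14 and 2.27 FPKM), the group in which it was highest. Egr1 passed only through heated libraries, in which it was high under both siRNAs. It was at 2.07 to 2.72 FPKM in heated YAP/TAZ siRNA libraries and at 4.09 and 7.50 FPKM in heated control siRNA libraries. In unheated libraries Egr1 was at 0.169 to 0.753 FPKM. After heat 10 of the 12 were lower, 0 higher and 2 not called, against 17.9% of all tested genes lower and 36.3% higher. Their median change was -0.85, against 0.13 over all genes. Without heat 10 were lower, 1 higher and 1 not called, against 21.9% of all tested genes lower and 27.1% higher. Their median was -0.63, against 0.02 over all genes. Dusp6, the ERK phosphatase gene, was at 16.5, 16.8 and 15.0 FPKM in heated YAP/TAZ siRNA libraries and at 52.2 and 44.9 FPKM in heated control siRNA libraries (-1.53 ± 0.09, limma adjusted p = 1.7e-06). Ccnd1, the cyclin D1 gene, was at 42.2, 43.3 and 40.7 FPKM in unheated YAP/TAZ siRNA libraries and at 79.4, 81.1 and 77.0 FPKM in control siRNA libraries without heat (-0.90 ± 0.04, limma adjusted p = 3.0e-07). Phlda1 was the exception without heat, at 147 ± 3.19 FPKM in YAP/TAZ siRNA cells and 70.3 ± 0.906 FPKM in control siRNA cells (SD, n = 3 each; 1.05 ± 0.07, limma adjusted p = 2.8e-06). With median-of-ratios scaling and quantile normalization, 11 and 10 of the 12 were lower after heat, and 10 each without heat. With heat under YAP/TAZ siRNA 4 of the 12 were higher and 5 lower, against 18.6% and 31.7% of all tested genes. Under control siRNA 5 were higher and 5 lower with heat, against 12.4% and 36.9%. The difference between the responses was called positive for 3 and negative for 6, against 24.6% and 13.4% of all tested genes.

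Genes upstream in the pathway were called in both directions. Among all tested genes 36.3% were higher and 17.9% lower with knockdown after heat, and 27.1% were higher and 21.9% lower without heat. Of 27 tested genes of the RAS-RAF-MEK-ERK core and its adaptors, 5 were higher and 8 lower with knockdown after heat, and 9 were higher and 5 lower without heat (medians -0.05 and 0.12). With median-of-ratios scaling and quantile normalization, 3 and 4 were higher and 11 and 10 lower after heat, and 6 and 7 were higher and 5 and 4 lower without heat. Among the 27, Frs3 reached 1 FPKM only in replicate 3 of heated and of unheated YAP/TAZ siRNA cells. Frs3 thus passed the filter through groups in which its mean was higher than in either control siRNA group. Rras, a RAS relative, rose without heat (1.56 ± 0.10, limma adjusted p = 2.2e-06) while its relative Rras2 fell (-0.84 ± 0.07, limma adjusted p = 1.3e-05). Of 14 listed receptor genes 5 were tested: 4 were higher and 1 lower with knockdown after heat, and 3 were higher and 1 lower without heat. The neuregulin receptor gene Erbb3 led them (1.03 ± 0.13 after heat and 1.35 ± 0.12 without, limma adjusted p = 1.6e-04 and 1.5e-05). Of 16 ligand genes 3 were tested. Hbegf, which encodes an EGF receptor ligand, fell both after heat (-0.88 ± 0.08) and without heat (-0.85 ± 0.07, limma adjusted p = 1.8e-05 and 1.1e-05). The EGF receptor gene Egfr itself was at 0 FPKM in every library. Tgfa rose (0.51 ± 0.09 and 0.53 ± 0.08, limma adjusted p = 9.0e-04 and 3.7e-04). However, Tgfa reached 1 FPKM only in unheated YAP/TAZ siRNA replicates 1 and 3 (1.02 and 1.04 FPKM). It thus passed the filter through a group in which it was high. With median-of-ratios scaling 2 ligand genes were tested, and 0 were called higher with knockdown. Heat lowered 11 and raised 1 of the 27 core genes under YAP/TAZ siRNA, and lowered 9 and raised 3 under control siRNA. The split under control siRNA turned with scaling, to 3 lower and 6 higher with median-of-ratios scaling and 4 lower and 4 higher with quantile normalization. Under YAP/TAZ siRNA 7 and 8 were lower and 1 and 2 higher. Among all tested genes heat raised 18.6% under YAP/TAZ siRNA and 12.4% under control siRNA. The split of all tested genes moved with these scalings as well. Under control siRNA it went from 4654 lower and 1560 higher to 3092 and 2517, and to 3252 and 2337. Under YAP/TAZ siRNA it went from 3999 lower and 2347 higher to 2938 and 3064, and to 2871 and 2729. Of the 5 receptor genes, heat lowered 4 under YAP/TAZ siRNA and 3 under control siRNA and raised none, beside 31.7% of all tested genes lowered under YAP/TAZ siRNA and 36.9% under control siRNA.

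The genes of proteins that bind or control the Sprouty, Spred and ETV products, other ETS factors and melanocyte markers stand here beside 54.3% of all tested genes called with knockdown after heat and 49.0% without heat, in either direction. Of 12 tested partner genes, 2 were higher and 2 lower with knockdown after heat, and 1 was higher and 1 lower without heat. Grb2, Nf1 and Rasa1 are among these partners and were also counted among the core and adaptor genes above. Nf1, which encodes neurofibromin, the effector of Spred proteins, fell with heat under YAP/TAZ siRNA (-0.86 ± 0.12, limma adjusted p = 4.8e-04), to 2.29, 3.07 and 2.33 FPKM in heated libraries, against 5.89, 5.32 and 5.16 FPKM in unheated ones. Siah2, a ubiquitin ligase gene, rose with heat by 0.58 ± 0.09 under YAP/TAZ siRNA and 1.75 ± 0.10 under control siRNA (limma adjusted p = 7.7e-04 and 1.6e-06). Of 8 tested genes of the Capicua repressor complex and the COP1 ligase, both of which hold PEA3 factors down, 1 was higher and 2 were lower with knockdown in each heat condition; Ddb1 fell in both (-0.39 ± 0.05 after heat and -0.42 ± 0.04 without, limma adjusted p = 1.3e-04 and 4.1e-05). Of 13 tested ETS factors outside the PEA3 group, 3 were higher and 3 lower after heat, and 4 were higher and 0 lower without heat, among them Elf1 (0.90 ± 0.11, limma adjusted p = 1.7e-04) and Elf2 (0.65 ± 0.05, limma adjusted p = 9.6e-06). One of the 13, Etv2, passed the filter only through the heated control siRNA libraries (1.74 and 1.38 FPKM), the group in which it was highest. Of the 10 melanocyte markers, 7 were higher and 1 lower with knockdown after heat, and 6 were higher and 3 lower without heat.

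**Figure D4:**
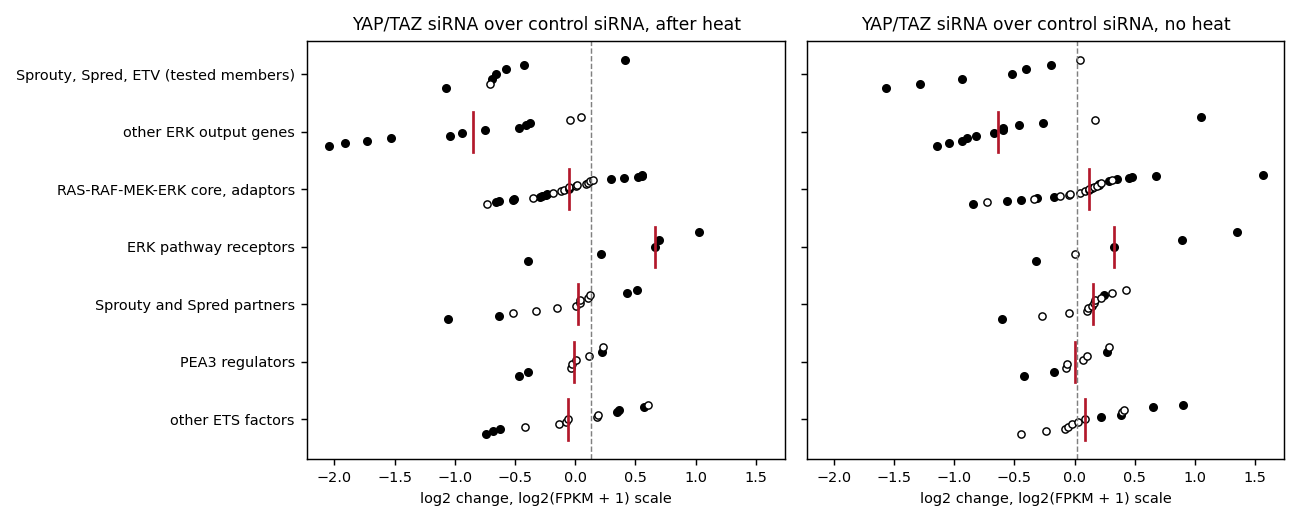
Log2 changes with YAP/TAZ siRNA over control siRNA, after heat and without heat (x axis, log2(FPKM + 1) scale), for the tested Sprouty, Spred and ETV genes and 6 related lists; filled points have an adjusted p under 0.05, red ticks are list medians and grey dashes the median of all genes. The other ERK output genes have medians of -0.85 and -0.63, while the core and adaptor genes spread around 0 with medians of -0.05 and 0.12.

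Across the 11 libraries, Spry4 and Etv4 had the most similar patterns of any pair of the 7 tested genes (Pearson r of log2 values 0.97), followed by Spry4 and Etv5 (0.87), Spred1 and Etv5 (0.82) and Spred1 and Spred2 (0.81). Spry1 and Spry2 had the one negative value (-0.64). These values describe libraries that fall into 4 groups and carry no test. Outside the set, the genes most like each member by the same measure were Ehd2 (0.99) and Rps6ka4 (0.98) for Spry4, and Fbxw26 and Fkbp9 (0.99 each) for Etv4. For Spred1 they were Nfatc3 (0.99) and Rhobtb3 (0.98), for Spred2 Slc6a6 (0.98) and Mcam (0.97), and for Spry1 Nup93 (0.97) and Fkbp5 (0.96). For Spry2 they were Magee1 and Dusp10 (0.96 each), and for Etv5 Habp4 (0.95) and Tnfaip6 (0.94). Rps6ka4 encodes the kinase MSK2, which ERK and p38 activate, and Dusp10 a phosphatase of the kinases JNK and p38.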

How the data were processed

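RNA sequencing was analysed in 11 libraries. The authors deposited 1 gene table of FPKM values. Per the submitters' processing notes, the tools were HISAT2, StringTie, SAMtools, Trimmomatic 0.36 and DESeq2, in no stated order, and the build GRCm38; for strandedness and annotation release nothing is stated. Of 54686 entries, 54104 had Ensembl identifiers and 54038 of these matched a symbol; positions are from GENCODE M21. No counts came with the table: steps between low values of genes with 1 transcript gave 30.8 to 44.2 M read units per library, of which it is unknown whether they are fragments or single reads, and 27.3 to 33.0% of those values were whole multiples to within 0.03. Depth is thus approximate, and no count model was used.

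Values were analysed as log2(FPKM + 1) for 12626 genes that reached 1 FPKM in 2 or more libraries, in 1 limma fit (limma 3.58.1, R 4.3.3, empirical Bayes with trend, 1 mean per group, 7 residual degrees of freedom). Family sums were added as extra genes. The fit was also run on data drawn at random with known changes in few genes. Far more genes were called in the real data, so that run does not show how the fit does there. Tables and figures used matplotlib 3.10.9, pandas 2.3.3, numpy 2.4.6 and Python 3.11.15. The 8 genes and the pathway lists were chosen with earlier results of these data known, so no list gets a test. All members are named; from each list up to 3 called genes per comparison with the lowest p could be named, with 2 most similar protein-coding genes per tested member. Alternatives were another pseudocount, other filters, 2 other scalings, fits of only the groups compared, the replicate block and leaving out each library; list counts under both scalings were added after seeing the data.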

Additional observations from a re-analysis of the deposited data

Results flagged for a closer look

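The heat response of 4 genes differed between the siRNAs by the interaction term of the limma fit, given as the response under YAP/TAZ siRNA minus that under control siRNA. The value was 0.93 for Spry1, -0.71 for Spry2, 0.59 for Spry4 and 0.49 for Etv4, against a median of 0.11 over all tested genes. The interaction was called for 37.9% of all tested genes. For Spry1 and Spry2 every heated library lay outside the range of the unheated ones under both siRNAs, in opposite directions. The share of all genes that separated in this way was not counted. Heat called 50.3% of all tested genes under YAP/TAZ siRNA and 49.2% under control siRNA. The fall of Spry2 with heat under YAP/TAZ siRNA was not called with median-of-ratios scaling or quantile normalization. The heated control siRNA cells rest on 2 libraries. The Spry1, Spry2 and Spry4 values stayed called in every alternative run that tested them, and that of Etv4 in all but the fit without heated control siRNA replicate 1 (0.44).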

How the results depend on the processing

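Calls of single genes that changed are given beside them above. Another scaling moved the median change of all genes by over 0.1 in 2 comparisons. It was -0.16 for heat under control siRNA (-0.02 with median-of-ratios scaling, -0.04 with quantile normalization) and 0.13 for YAP/TAZ siRNA after heat (0.02 and 0.05). The split of all calls for heat under control siRNA was 1560 higher and 4654 lower, and 2517 and 3092 with median-of-ratios scaling or 2337 and 3252 with quantile normalization. For heat under YAP/TAZ siRNA it was 2347 and 3999, against 3064 and 2938 or 2729 and 2871, and for YAP/TAZ siRNA after heat 4589 and 2266, against 3357 and 3196 or 3707 and 2941. For the interaction it was 3102 and 1689, against 2428 and 1984 or 2397 and 1980, and for YAP/TAZ siRNA without heat 3420 and 2761, against 2797 and 3348 or 2992 and 3003. The number of these genes called per comparison stayed within 1.5 times in all alternatives. Without unheated control siRNA replicate 2, 4 of the 6 genes lower with YAP/TAZ siRNA without heat were called.

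Changes in the family sums were these. With median-of-ratios scaling and quantile normalization, the heat response under control siRNA became called for the Sprouty sum (0.13; 0.29 and 0.27) and was no longer called for the Spred sum (-0.28; -0.12 and -0.16) or the ETV sum (-0.51; -0.36 and -0.33), and the interaction became called for the Sprouty sum (-0.28; -0.35 and -0.37) and the Spred sum (-0.21; -0.27 and -0.32). The ETV sum for heat under YAP/TAZ siRNA (-0.16) was 4.6e-04 with quantile normalization. The Sprouty interaction was also called with the filter at 5 FPKM (-0.28, adjusted p = 0.0442). Leaving out single libraries gave, for heat under control siRNA, Sprouty sums of 0.015 to 0.25, Spred sums of -0.32 to -0.24 and ETV sums of -0.71 to -0.32; for heat under YAP/TAZ siRNA, Sprouty sums of -0.18 to -0.12 and ETV sums of -0.25 to -0.02; and for the interaction, Sprouty sums of -0.40 to -0.17 and Spred sums of -0.27 to -0.16. The Sprouty sum for heat under YAP/TAZ siRNA became called without heated control siRNA replicate 1 or 3 (-0.15, adjusted p = 0.0442 and 0.0441), and the Spred sum for the interaction without heated YAP/TAZ siRNA replicate 2 (-0.27, adjusted p = 0.0454). Without heated control siRNA replicate 3 the Sprouty sum was called for heat under control siRNA and for the interaction, and the Spred and ETV sums were not called for heat under control siRNA; the ETV sum was also not called without unheated control siRNA replicate 1 or 2. All genes called for the interaction numbered 4791, and 2982 to 6066 in the alternatives, with 2982 to 4967 without single libraries, the lowest without heated control siRNA replicate 1. Reversed values not called were those of Spred1 for heat under control siRNA (0.12 and 0.10 with the scalings, and -0.088 to 4.4e-04 without single libraries, the highest without unheated control siRNA replicate 2), of Etv5 for the interaction (-0.13 to 0.60 without single libraries, the lowest without heated control siRNA replicate 3) and of Spry2 for YAP/TAZ siRNA without heat (-0.023 with median-of-ratios scaling). The cause of these shifts was not tested.

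The replicate numbers are not stated to pair libraries: deviations of same-numbered libraries from their group means correlated at -0.11 to 0.13 (15 pairs), and those of other pairs at -0.18 to 0.16 (30 pairs). With the replicate block, 6463, 6595, 5294, 6499 and 7139 genes were called for heat under control siRNA, heat under YAP/TAZ siRNA, the interaction and YAP/TAZ siRNA without and after heat, against 6214, 6346, 4791, 6181 and 6855 without it. The block made Spred1 called for the interaction (-0.26, adjusted p = 0.0161), as did both scalings (-0.29 and -0.31) and leaving out heated YAP/TAZ siRNA replicate 2 (-0.28). FPKM without counts leave the precision of the lowest genes, Etv1 and Spry1, unknown beyond the spread of 2 or 3 libraries.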
